A study of Mus musculus with 8 samples.

Results

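The miRNAs described here are those of the imprinted Dlk1-Dio3 locus on distal mouse chromosome 12, measured in sorted cells of the thymus. They were taken as the rows of the deposited mouse miRNA table that lie on chromosome 12 with a start between 110.6 and 111.2 Mb and whose name does not carry the asterisk of a passenger strand. The table names no genome build. This gave 74 of its 1040 mouse probes, from 58 hairpins spread over 203420 bp. RefSeq (build GRCm38.p6) held a mature sequence equal to the probe's target for 64 of the 74, and all 64 lie between the protein genes Dlk1 and Dio3 there, so the label of the locus fits these rows.

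The cells came from thymi of NOD wildtype female mice, an inbred strain that develops autoimmune diabetes. They are labelled as 4 weeks old, and legends for the same arrays have 4 to 5 weeks. No allele or treatment separated the groups, and each sample pooled the thymi of 10 to 12 mice. The sort gave 3 populations. CD45+ cells (EpCAM-, CD45+; n = 3) are mostly thymocytes. Cortical thymic epithelial cells (cTECs) were CD45-, EpCAM+, MHC II+ and Ly51+ (n = 2), and medullary thymic epithelial cells (mTECs) passed the same gate but were Ly51- (n = 3). RNA of each sample was hybridized to 1 single-color array with 5 spots per probe. A replicate is a pool of mice on its own array, so the p-values measure the spread between pools and between arrays together.

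The Dlk1-Dio3 locus is expressed according to the parent of origin. Dlk1, Rtl1 and Dio3 are protein genes read from the paternal chromosome, while the noncoding RNAs Meg3, Rian and Mirg and the miRNAs that lie in and between them are read from the maternal chromosome. The miRNAs are known from embryo, placenta and brain, and are low in most adult tissues. A miRNA pairs with its targets mainly through its seed, bases 2 to 8 of the mature strand.

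The mature sequences below are from RefSeq (GRCm38.p6), written 5′ to 3′ with the seed in capitals. The first set holds the miRNAs detected on at least 1 array by the rule given below, as far as RefSeq matched them, since the results turn on these.
miR-494: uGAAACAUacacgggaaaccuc
miR-541: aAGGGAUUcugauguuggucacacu
miR-409-3p: gAAUGUUGcucggugaaccccu
miR-665: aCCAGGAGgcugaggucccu
miR-667: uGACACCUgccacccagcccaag
miR-134: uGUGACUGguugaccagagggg
miR-370: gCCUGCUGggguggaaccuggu
miR-1906: uGCAGCAGccugaggcagggcu
miR-3070b-3p and miR-539-3p, which also belong to this set, were not matched. The next sequences are of miRNAs that the locus is known for and that stayed below detection. Those of miR-431, miR-433, miR-127, miR-434-3p and miR-136 come from the strand opposite to the Rtl1 messenger RNA.
miR-431: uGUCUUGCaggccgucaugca
miR-433: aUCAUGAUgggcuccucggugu
miR-127: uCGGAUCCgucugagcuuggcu
miR-434-3p: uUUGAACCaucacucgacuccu
miR-136: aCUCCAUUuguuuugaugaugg
The last set shows how far the members differ. With the seeds of the 10 unmatched members read from the bases their probes complement, the 74 members had 71 seeds, of which 3 were shared by 2 members each: miR-379 and miR-1193-5p, miR-381 and miR-539-3p, and miR-3070a and miR-3070b-3p. The related miR-300 and miR-381, and likewise miR-376a and miR-376b, differ from each other in their seeds.
miR-379: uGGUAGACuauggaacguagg
miR-1193-5p: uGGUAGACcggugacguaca
miR-300: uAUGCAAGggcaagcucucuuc
miR-381: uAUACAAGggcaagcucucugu
miR-376a: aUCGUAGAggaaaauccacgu
miR-376b: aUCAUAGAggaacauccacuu

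Along the chromosome the members fell into 5 sub-groups once they were parted wherever neighbouring starts lay more than 10000 bp apart. The first was miR-1906 alone, at chr12:110782751-110782830, whose row also names a further position on the X chromosome. The second ran from miR-770 to miR-136, chr12:110801902-110833607, with 20 members. The third held miR-341, miR-1188 and miR-370, chr12:110849710-110856546. The fourth was miR-882 alone, and the fifth ran from miR-379 to miR-3072, chr12:110947270-110986170, with 49 members. By RefSeq's gene models, 14 members lay within Rtl1, 12 within Mirg, 3 within Meg3 and 3 within Rian, 32 lay within no other gene and 10 were unmatched.

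Few miRNAs of the locus gave a signal over background in these cells. A miRNA is called detected on an array here when the scanner software marked most of its spots as well above background. By this rule, 10 of the 74 members (13.5%) were detected on at least 1 of 8 arrays, beside 408 (42.2%) of the mouse probes from elsewhere, or 51.3% of the 637 others that are not passenger strands. The remaining 64 members (86.5%) were detected on no array, and none of 616 negative control spots was. Of the 10, miR-494 was detected on 6 arrays, miR-541 and miR-409-3p on 2 each, and 7 on a single array.

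The CD45+ arrays each detected 1 member, which was miR-494 in all 3. The cTEC arrays detected 1 (miR-665) and 0. The mTEC arrays detected 7, 2 and 4. As mean and SD over arrays this was 1 ± 0 (n = 3), 0.5 ± 0.707 (n = 2) and 4.33 ± 2.52 (n = 3). By this rule every mTEC array detected more members than any CD45+ or cTEC array. The order was lost when any spot counted: the mTEC arrays then gave 16, 4 and 29, the CD45+ arrays 2, 4 and 1 and the cTEC arrays 7 and 8. When all spots had to be well above background, each mTEC array gave 2. The mTEC arrays also detected more of the other mouse probes, 279, 234 and 321 beside 191, 228 and 168 for CD45+ cells and 121 and 98 for cTECs. Markers of mesenchyme were also higher on the mTEC arrays: the summed signal of 5 such miRNAs was 6294 to 6660 there, 5117 and 2232 for cTECs and 189 to 301 for CD45+ cells. Of these, miR-143 and miR-145 were detected on all 3 mTEC arrays, miR-214 on 2, and miR-199a-3p and miR-199a-5p on no array. On the cTEC arrays miR-143 was detected on 2 and miR-145 on 1. The summed signal of 2 endothelial miRNAs was 497 to 550 on mTEC arrays, 2755 and 1527 on cTEC arrays and 212 to 295 on CD45+ arrays, and of 3 erythroid miRNAs 1 was detected on 1 mTEC array and none elsewhere. The parts of array brightness and of other cell types in the members' counts were not tested.

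**Figure D1:**
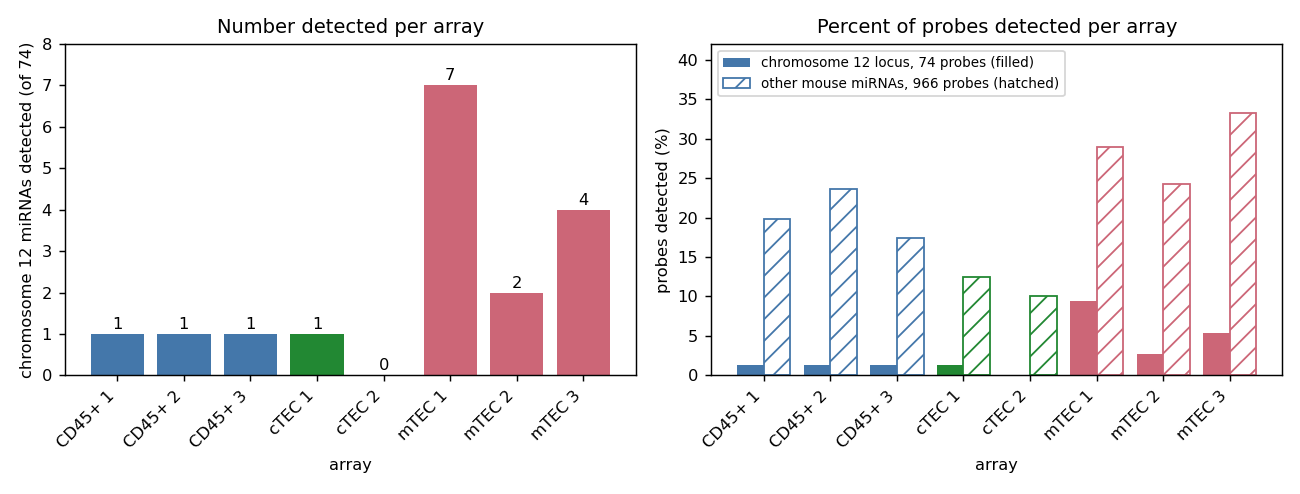
Left, number of the 74 chromosome 12 miRNAs detected on each of the 8 arrays; right, the percent of these probes (filled bars) and of all other mouse probes (hatched bars) detected on the same array, colored by cell population. The mTEC arrays detected 7, 2 and 4 members and the other arrays 1 or 0, and on every array the filled bar is lower than the hatched one.

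The arrays were not equally bright. The 75th percentile of the 65 mouse probes detected on all 8 arrays before scaling was 8323 to 11408 for CD45+ cells, 2910 and 1364 for cTECs and 11503, 4213 and 6408 for mTECs. After each array was scaled to a common percentile, the lowest signal of a detected mouse probe was 67.0 to 223 on the CD45+ and mTEC arrays, but 342 and 621 on the cTEC arrays. The limits of both cTEC arrays thus lay above those of all other arrays, and a lack of detection in cTECs is a weaker statement. In their summed signals, marker miRNAs followed the sort labels, less plainly for cTECs. The sum of 7 epithelial miRNAs was 36799 to 39058 on mTEC arrays, 4442 and 8620 on cTEC arrays and 623 to 704 on CD45+ arrays. That of 6 blood cell miRNAs was 24259 to 28136 on CD45+ arrays, 4131 and 5103 on cTEC arrays and 3216 to 4619 on mTEC arrays. Single markers differed: miR-429 and miR-203 were detected on no cTEC array. In the tests below, 1 of the 7 epithelial miRNAs was called higher in cTECs than in CD45+ cells, beside 7 in mTECs. Of the 6 blood cell miRNAs, 4 to 6 were detected on mTEC arrays and 3 on each cTEC array.

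Below the detection call, a weaker flag of the scanner software, positive and significant against the local background, was set for more members. CD45+ cells had it for 23, 31 and 27 members, cTECs for 28 and 45, and mTECs for 56, 35 and 56. On mTEC replicates 1 and 3 this was 75.7% of the members beside 75.9% and 77.8% of the other mouse probes, and on mTEC replicate 2 it was 47.3% beside 65.1%. The cTEC arrays gave 37.8% and 60.8% beside 52.7% and 71.5%. On the CD45+ arrays it was 31.1%, 41.9% and 36.5% beside 56.9%, 60.6% and 53.4%. The median member lay at 56% and 54.9% of the lowest detected signal on mTEC replicates 1 and 3, at 25.4% on mTEC replicate 2, at 12.2% to 15.7% for CD45+ cells, and at 14.1% and 37.6% for cTECs. The median member thus lay nearer to the call on mTEC replicates 1 and 3 than on any other array.

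**Figure D2:**
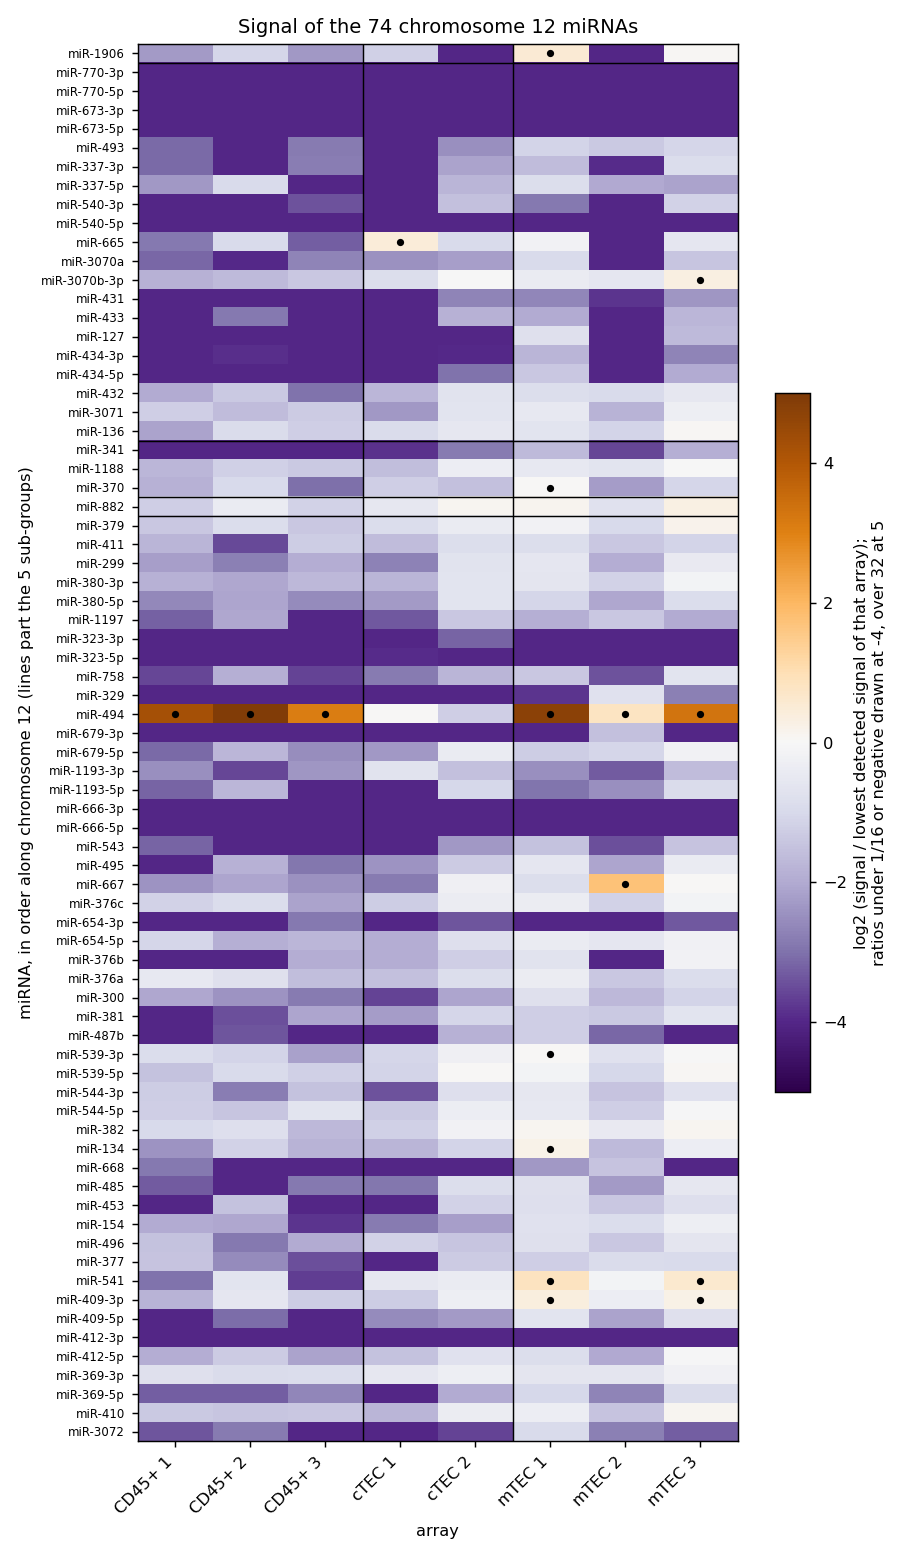
Signal of each of the 74 miRNAs (rows, in their order along chromosome 12; lines part the 5 sub-groups) on each of the 8 arrays (columns), as log2 of the ratio to that array's lowest detected signal. Black dots mark detected probes: miR-494 carries 6 dots, miR-541 and miR-409-3p 2 each, and 7 other members 1 each.

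MiR-494 was the only member detected in CD45+ cells. It lies in the fifth sub-group at chr12:110953528-110953612, between miR-329 and miR-679, neither of which was detected on any array. Its seed, GAAACAU, was shared with no other mouse probe of the table. On the scaled intensity scale the CD45+ arrays gave 2138, 2470 and 1241 for replicates 1 to 3, and each had all 5 spots well above background. The mTEC arrays gave 1774, 387 and 974, again with 5 of 5 spots. The cTEC arrays gave 346 and 264, with 2 and 0 of 5 spots, so it was not well above background there. The CD45+ and mTEC ranges overlapped, since mTEC replicate 1 lay between CD45+ replicates 1 and 3. The detection limits of the cTEC arrays, 342 and 621, lay under all 3 CD45+ values, while that of cTEC replicate 2 lay over mTEC replicate 2, so cTECs and mTECs are not ranked array by array.

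The tests compared mean log2 signals with limma over all 309 mouse probes detected on at least 2 arrays, with p-values adjusted by Benjamini-Hochberg. Signals under 621, the detection limit of the dimmest array, were raised to that floor first, which understates differences of dim miRNAs. Only 3 members, miR-494, miR-541 and miR-409-3p, could be tested. None of the 3 was called at an adjusted p under 0.05 in mTECs against CD45+ cells, where 23.9% of all tested probes were called, in cTECs against CD45+ cells (30.7%) or in mTECs against cTECs (22.7%). At an unadjusted p under 0.05 the counts were 0, 1 and 0 of 3.

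For miR-494, cTECs were lower than CD45+ cells by a log2 fold change of -1.59 (SE 0.49, n = 2 and 3, limma adjusted p = 0.0576), which missed the threshold. Both cTEC arrays sat at the floor, so the cTEC mean was itself the floor and cTECs added no spread to this test. A bound was also taken from each cTEC array's own detection limit, or from its signal where that was higher, as on cTEC replicate 1. By it, miR-494 was at least 4.04-fold higher in mean in CD45+ cells than in cTECs. The same bound for mTECs over cTECs was 1.89-fold, although mTEC replicate 2 lay under the limit of cTEC replicate 2. Between mTECs and CD45+ cells the log2 fold change was -0.87 (SE 0.44, n = 3 and 3, limma adjusted p = 0.306), and between mTECs and cTECs it was 0.72 (SE 0.49, n = 3 and 2, limma adjusted p = 0.417). The sizes of both depended on single arrays: with each left out in turn they ran from -1.27 to -0.51 and from 0.32 to 1.08. The call against cTECs depended on the processing: miR-494 was called lower in cTECs than in CD45+ cells under 14 of 22 alternatives, with log2 fold changes between -3.92 and -0.84 and adjusted p from 0.00406 to 0.221.

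**Figure D3:**
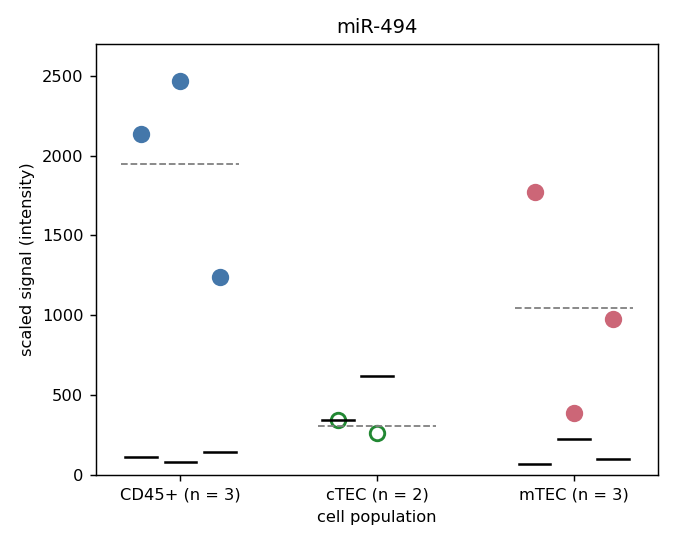
Scaled signal of miR-494 on each array (linear axis from 0), by cell population. Filled circles are detected, open circles are not well above background, black bars give the lowest detected signal of that array and dashed lines the group means. The CD45+ arrays lie at 1241 to 2470, the mTEC arrays spread from 387 to 1774 and the cTEC arrays lie at 264 and 346.

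Replicates of miR-494 lay further apart than those of most miRNAs. Its SD on the log2 scale was 0.52 over the CD45+ arrays, while the median over 120 mouse probes detected on all 6 CD45+ and mTEC arrays was 0.12 and none had a larger SD. Over the mTEC arrays its SD was 1.11 beside a median of 0.21, and 4 of the 120 were larger. The highest array was 1.99-fold over the lowest in CD45+ cells and 4.59-fold in mTECs. In both populations the arrays ranked by miR-494 as they ranked by overall brightness before scaling, and the arrays of slide row 1 lay above those of row 2. Within row 1 the mTEC minus CD45+ difference was -0.37 on the log2 scale, and within row 2, where mTEC replicate 2 lay under the floor, it was -0.68 with the floor and -1.02 without. With both cTEC arrays set to the floor, so that sizes are understated, cTECs minus CD45+ cells gave -1.89 and -0.999, and mTECs minus cTECs 1.51 and 0.32. With the slide row as a block, cTECs were lower than CD45+ cells by a log2 fold change of -1.46 (SE 0.34, limma adjusted p = 0.0269). The part of brightness and slide row in the spread was not tested. Of the blood cell markers, miR-142-3p and miR-223 were detected on all 3 CD45+ arrays and on neither cTEC array, and on 3 and 2 of the 3 mTEC arrays. MiR-142-5p did as miR-223, while the other 3 of the list, miR-150, miR-155 and miR-181a, were detected on all 8 arrays. Whether carried-over CD45+ cells had a part in the mTEC signal of miR-494 was not tested. In bulk samples such as these, fewer cells with a miRNA and less of it per cell cannot be told apart.

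In the deposited table of quantile-normalized log2 values, miR-494 stood at 11.99 to 12.31 in CD45+ cells, 11.31 to 11.37 in cTECs and 11.43 to 12.28 in mTECs. The other 73 members lay between 11.2 and 11.61 on all arrays. Those values keep the background signal, so differences in them are compressed.

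MiR-541 and miR-409-3p, which lie within Mirg near the end of the fifth sub-group, were detected in mTECs alone. MiR-541 gave scaled signals of 119, 202 and 148 in mTECs, 14.5, 51.3 and 11.1 in CD45+ cells, and 238 and 467 in cTECs. It was detected on mTEC replicates 1 and 3, with 5 of 5 spots on each. The values on mTEC replicate 2 and on all CD45+ and cTEC arrays lay under the detection limits of those arrays, so no order of the groups is read from them.

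MiR-409-3p gave 86.1, 179 and 115 in mTECs, 32.6, 54.3 and 59.3 in CD45+ cells, and 141 and 512 in cTECs. It was detected on the same mTEC replicates, 1 and 3, with 3 of 5 spots on each, and its values on the other 6 arrays likewise lay under their limits. Both miRNAs sat at the floor in the main test, with log2 fold changes of 0 between mTECs and CD45+ cells (limma adjusted p = 1 for each), so that test could not compare them.

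The 7 members seen on a single array were mostly close to the limit. MiR-665, one of the Rtl1 miRNAs by position, was the only member detected in cTECs. It gave 473 on cTEC replicate 1 with 5 of 5 spots and 316 on cTEC replicate 2, where it was not well above background. On the CD45+ arrays it gave 15.5, 41.3 and 15.1, and on the mTEC arrays 59.6, 11.2 and 65.3, all not well above background. The cTEC replicate 1 signal was 1.38-fold over that array's detection limit.

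MiR-667 was detected on mTEC replicate 2 alone. It gave 737 there, over all 4 spots kept, and 37.8 and 99.4 on mTEC replicates 1 and 3. The CD45+ arrays gave 21.4, 18.7 and 26.3 and the cTEC arrays 48.3 and 519, none of them well above background. The replicate 2 signal, 3.31-fold over that array's limit, thus stood apart from the other mTEC pools, and 46 of the other mouse probes were likewise detected on this array and no other.

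A further 4 members were detected on mTEC replicate 1 alone. MiR-134, known for restraining dendritic spine growth in neurons, gave 77.8 there with 3 of 5 spots, and 70.3 and 77.9 on mTEC replicates 2 and 3. MiR-1906 gave 95.7 with 4 of 5 spots, and 13.6 and 101 on the other mTEC arrays. MiR-370 gave 67.2 and miR-539-3p 68.4, each with 3 of 5 spots and within 1.02-fold of the limit. On mTEC replicates 2 and 3 miR-370 gave 47.1 and 46.2, and miR-539-3p 137 and 95.6. MiR-3070b-3p was detected on mTEC replicate 3 alone, at 122 with 3 of 5 spots. None of these 5 was detected in CD45+ cells, where miR-134 gave 21.3 to 41.1, miR-1906 23.3 to 37.6 and miR-370 17.6 to 40.5. MiR-539-3p gave 61.8 at most there and miR-3070b-3p 25.3 to 55.2. Nor was any detected in cTECs, whose replicates 1 and 2 gave 98.5 and 288 for miR-134 and 150 and 21.5 for miR-1906. They gave 146 and 211 for miR-370, 161 and 523 for miR-539-3p, and 191 and 615 for miR-3070b-3p. These cTEC values lay under the limits of their arrays, so no order of the groups is read from them.

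**Figure D4:**
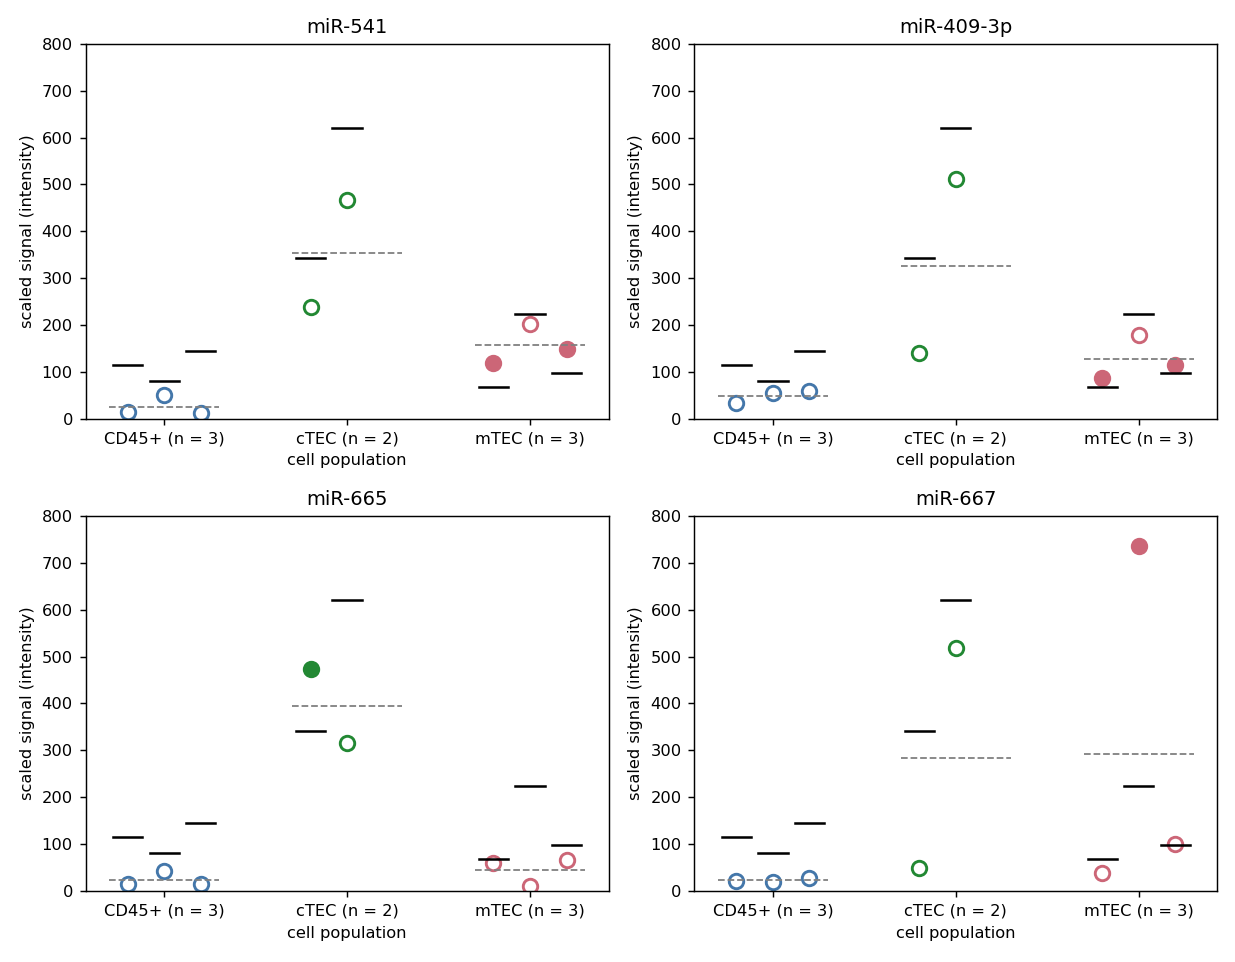
Scaled signal of miR-541, miR-409-3p, miR-665 and miR-667 on each array (linear axis from 0), with symbols as for miR-494: filled circles detected, open circles not well above background, black bars the lowest detected signal of that array, dashed lines group means. MiR-541 and miR-409-3p are filled on mTEC replicates 1 and 3, miR-665 on cTEC replicate 1 and miR-667 on mTEC replicate 2, where it reaches 737.

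By sub-group, the mTEC arrays detected miR-1906 of the first, 1 of 20 members of the second (miR-3070b-3p), 1 of 3 of the third (miR-370), miR-882 of the fourth not at all, and 6 of 49 of the fifth. Of the 14 members that RefSeq placed within Rtl1, 1 was detected, miR-665 on cTEC replicate 1. Those given next, which oppose the Rtl1 messenger RNA in sequence, were picked from the undetected ones. MiR-127, which pairs perfectly with the Rtl1 messenger RNA, gave 39.5, -33.2 and 31.3 in mTECs, -0.055, 4.34 and -10.5 in CD45+ cells and -64.7 and -1.63 in cTECs, where values below 0 lie under the subtracted background. MiR-136 gave 43.3, 104 and 101 on the mTEC arrays, 26.2 to 61.6 on the CD45+ arrays and 183 and 432 for cTECs. MiR-431, miR-433 and miR-434-3p reached at most 19.3, 29.1 and 19.5 on the mTEC arrays.

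The long run from miR-379 to miR-410, known from neurons and from the newborn liver, was below detection outside the members named above. MiR-379, its first miRNA, gave 59.3, 112 and 111 on the mTEC arrays and 43.8 to 55.9 on the CD45+ arrays, with 188 and 468 for cTECs, not well above background on any. MiR-410 gave 53.3, 80.8 and 105 on the mTEC arrays 55.6 at most on the CD45+ arrays, and 100 and 477 for cTECs. MiR-382 gave 71.9, 162 and 104 for mTECs, 44.7 to 57.7 for CD45+ cells and 150 and 556 for cTECs. None of these was well above background, so they carry no order between the groups. Since the call goes by spots, an undetected miRNA can lie over an array's lowest detected signal. This held for 8 members on mTEC replicate 3, with miR-379, miR-410 and miR-382 among them. It also held for 2 members on mTEC replicate 1, 1 on cTEC replicate 1 and 2 on cTEC replicate 2. MiR-376a and miR-376b, whose transcripts are known targets of A-to-I editing in brain, gave 51.1, 84.4 and 53.7, and 41.7, -5.90 and 87.3, on the mTEC arrays. The cTEC arrays gave 118 and 345 for miR-376a and 89.9 and 266 for miR-376b, and the CD45+ arrays at most 82.2 and 37.9. Neither was detected on any array.

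For other imprinted miRNAs, a list of 8 was taken from the H19, Nespas, Mest and Igf2 loci: miR-675-3p and -5p, miR-296-3p and -5p, miR-298, miR-335-3p and -5p, and miR-483. Of these, 4 were tested, but miR-296-3p, miR-296-5p and miR-298 lay under the floor in mean signal on every array and miR-483 on all but cTEC replicate 2, so the test could not compare them and no call was made. MiR-675 and miR-335-3p were detected on no array. MiR-483, which lies in Igf2, was detected on 2 CD45+, 2 cTEC and 2 mTEC arrays, and miR-296-3p, of the Nespas locus, on all 3 CD45+ arrays and no other, at 145, 146 and 168.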

How the data were processed

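The authors deposited the scanner output of 8 single-color arrays, giving raw and background-subtracted spot intensity and quality flags (Feature Extraction 10.7.3.1 per the file headers), and a mouse table of quantile-normalized log2 values; its columns of the authors' own fold changes, p-values and scores were not used. Here the processed intensity was read in R 4.3.3 and fitted with limma 3.58.1. Outlier spots (0.827% to 1.87% of those of mouse probes) were left out, and no member had more than 1 probe. Each array was scaled to a common 75th percentile over the 65 mouse probes detected on all 8 arrays, floored at 621 (9.28 on the log2 scale), log2 transformed and averaged over spots. Probes detected on at least 2 arrays were tested in 1 model of 3 group means with 5 residual and 0.90 prior degrees of freedom, in which the 83 probes that never rose over the floor counted as not different. The fit alone was tested on simulated data, made from values already floored, so that test does not bear on dim members. Lower limits of fold changes set the brighter group's mean against the dimmer group's detection limits, or against an array's own signal where that was higher. Members with all arrays of a group detected, and called members, were to be named with all values, and others by counts, with those detected at all named; the undetected miRNAs named here were chosen after their values were seen. The members, the lists and the rules were chosen with earlier results of these data known. Depth does not apply to arrays; their number limits the precision. Alternatives covered scaling, background, floor, filter, spot summary, samples in the fit, blocks and each array left out.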

Additional observations from a re-analysis of the deposited data

Results flagged for a closer look

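Passenger strands of the locus were not among the members. Of their 37 rows, 5 (13.5%) were detected on at least 1 array, beside 76 (26%) of the 292 passenger strand rows outside the locus and none of the negative control spots. The row miR-3072* was detected on 8 of 8 arrays, at scaled signals of 211 to 259 in CD45+ cells, 582 and 700 in cTECs and 213, 470 and 446 in mTECs, while miR-3072 itself was detected on none. MiR-485* and miR-1188* were detected on mTEC replicate 2 alone, at 785 and 593, the array on which miR-667 stood apart. MiR-410* and miR-300* were detected on mTEC replicate 3 alone, at 107 and 145.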

How the results depend on the processing

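Of the 3 members tested, 0 were called in each comparison as reported. Under the alternatives the count for cTECs against CD45+ cells was 1 (miR-494, lower in cTECs) in 8 cases: scaling by the 75th percentile of all mouse probes, unscaled signals, the deposited table, the filter on every array of a group, the median of spots, a slide row block, both groups alone, or an intensity trend. It was 2 with the floor of the CD45+ and mTEC arrays (with miR-541, higher in cTECs), 3 with normexp or the lowest floor, and 0 to 2 without each array. With normexp, miR-541 and miR-409-3p were called higher in cTECs by 2.38 and 2.12 on the log2 scale, and at the lowest floor by 2.17 and 1.98, with cTEC signals that were not well above background. At the lowest floor, which lies under the detection limit of each CD45+ array, 1 was called in mTECs against CD45+ cells (miR-541), and 0 under all other alternatives, single arrays left out among them. For mTECs against cTECs 2 were called with normexp (miR-541 and miR-409-3p, -1.40 and -1.46), 1 at the lowest floor (miR-541, -1.01) and 0 to 2 without each array. The 2 called without cTEC replicate 1, miR-541 and miR-409-3p, differed by at most 0.056 on the log2 scale, since nearly all arrays then sat at the floor. No member was left under the filter on all 8 arrays. MiR-494 kept its direction in all 3 comparisons under every alternative, but not its size. Its log2 fold change ran from -1.87 to -0.35 in mTECs against CD45+ cells and from 0.32 to 2.25 in mTECs against cTECs. In mTECs against cTECs the direction turned for miR-541 without normalization (0.068) and for miR-409-3p without normalization (0.0054) and in the deposited table (0.0025), with adjusted p of 0.609 or more.

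The mean number of members detected was 1, 0.5 and 2 when all spots had to be well above background, 2.33, 7.5 and 16.3 (CD45+, cTEC, mTEC) when any spot counted, and 27, 36.5 and 49 with the weaker flag. Without each array in turn it was 1, 0 to 1, and 3 to 5.5. Same-numbered deviations correlated from -0.217 to 0.278, which with so few arrays cannot settle any pairing. With the replicate block, miR-494 in cTECs against CD45+ cells stood at -1.76 (limma adjusted p = 0.0819) and no member was called. Calls over all probes (74, 95 and 70 for mTECs against CD45+ cells, cTECs against CD45+ cells and mTECs against cTECs) ranged from 31 to 140, 53 to 249 and 38 to 200. They were 31, 53 and 38 of 65 probes under the filter on all 8 arrays, 140, 224 and 129 at the lowest floor and 118, 249 and 200 with normexp. Both counts that involve cTECs also rose more than 1.5-fold without cTEC replicate 1, a fit that left a single cTEC sample. An alternative added after seeing the data, the floor of the CD45+ and mTEC arrays with both fitted alone, called 123 in mTECs against CD45+ cells and no member. Dim cTEC arrays limit what could be seen there.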
